A study of Rattus norvegicus with 35 samples.

Results

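Livers of cirrhotic rats were compared with livers of control rats after the same challenge, hemorrhage followed by resuscitation (H/R). The comparison took the samples that the labels place in treatment group CBDLpH (ligated H/R, 6 samples) and in treatment group CTROLH (control H/R, 6 samples), which are 12 of the 35 samples of the series. Secondary biliary cirrhosis was produced by tying and removing a piece of the common bile duct, with weekly vitamin K injections, and the ligated rats were studied 4 weeks after surgery. Neither H/R group received simvastatin, the drug given to other groups of the series. Control sham (n = 5) and ligated sham (n = 5) rats had a sham procedure in place of H/R and served as background for the same contrast without blood loss. Strain, sex and age, the volume of blood removed, the time from resuscitation to sampling, and any sham surgery on the bile duct or gavage of the control rats are not given in the sources used. Since the labels name no animals, a p-value here reflects the spread of the samples as deposited, which may be partly technical.

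Total liver RNA was hybridised to 1-colour Affymetrix arrays, 1 per sample. The deposited values are normalized log2 signals, so a difference of 1 is a 2-fold change in signal. Each gene was read from its brightest probe set that carries a single symbol, which gave 13439 genes. Differences are ligated H/R minus control H/R with the standard error of a limma fit over all 35 arrays, with Benjamini-Hochberg adjustment of the p-values over all genes. A gene passed at an adjusted p under 0.05. A group whose mean did not exceed the brightest nonspecific probe (4.59 on average in control H/R and 4.00 in ligated H/R) has only a bound and the fold is written as at least that fold. The level of a gene cannot be ranked against that of another gene on these arrays, and precision is limited by the 6 arrays per group.

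Obstruction of the bile duct raises bile pressure, multiplies bile ductules around the portal tracts and activates stellate cells and portal fibroblasts, which lay down scar matrix. Hepatocytes make plasma proteins, bile acids and urea and run drug and lipid metabolism under the control of transcription factors such as HNF4A. Blood loss and reperfusion stress the liver further, with heat shock chaperones and inflammatory cytokines among the genes known to respond.

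Ligated H/R livers carried far more message of biliary epithelium and scar matrix than control H/R livers. They carried less message for male liver and growth hormone signalling genes, cytochrome P450 enzymes, lipogenesis and sterol synthesis. Of the 13439 genes 6310 (47.0%) passed, 3314 (24.7%) higher and 2996 (22.3%) lower in ligated H/R. Counts of list members below are to be read beside these shares. At least 2-fold higher were 1385 genes (10.3%) and at least 2-fold lower 589 (4.38%). For 3122 genes (23.2%) the ranges of the groups did not overlap, 1921 (14.3%) with all 6 ligated arrays above all 6 control arrays and 1201 (8.94%) with all below. The median difference over all genes was -0.03. With each array centred on its own median this became -0.19, and the calls split into 2611 higher and 4795 lower (35.3% higher against 52.5% with the values as deposited), so the balance between rises and falls depends on the scaling.

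Among genes measured above the nonspecific probes in both groups, Tspan8 rose and Obp3 fell the most. Tspan8, a tetraspanin of epithelial surfaces, ranged from 4.76 to 6.67 (median 5.12) in control H/R and from 9.96 to 11.25 (median 10.83) in ligated H/R. The ranges were far apart, and the rise was 43.5-fold (log2 5.44 ± 0.32, adjusted p = 4.2e-15). Obp3, a lipocalin of the alpha-2u globulin family made by male rat liver, lay between 10.74 and 11.86 (median 11.46) in control H/R and between 3.34 and 6.90 (median 5.22) in ligated H/R. It fell 63.8-fold (log2 -6.00 ± 0.59, adjusted p = 5.2e-10), with no overlap and a wider spread among the ligated arrays. Gstp3, a glutathione transferase, fell 23.2-fold, the prostate-type acid phosphatase gene Acp3 15.5-fold and the progestin receptor gene Paqr9 13.3-fold. The citrate carrier Slc13a5 fell 10.7-fold, the hydroxyacid oxidase Hao2 10.4-fold and Ddc, which makes dopamine and serotonin, 8.12-fold. With ligated H/R at or under the nonspecific probes, Stac3 fell at least 13.5-fold, Poteml2 at least 7.40-fold, Lin7a at least 7.14-fold and the sulfate carrier Slc13a4 at least 4.67-fold. The aldo-keto reductases Akr1c1 (10.4-fold) and Akr1c3 (at least 5.39-fold) also fell, and since they have close relatives a probe set may read more than 1 of the family.

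**Figure D1:**
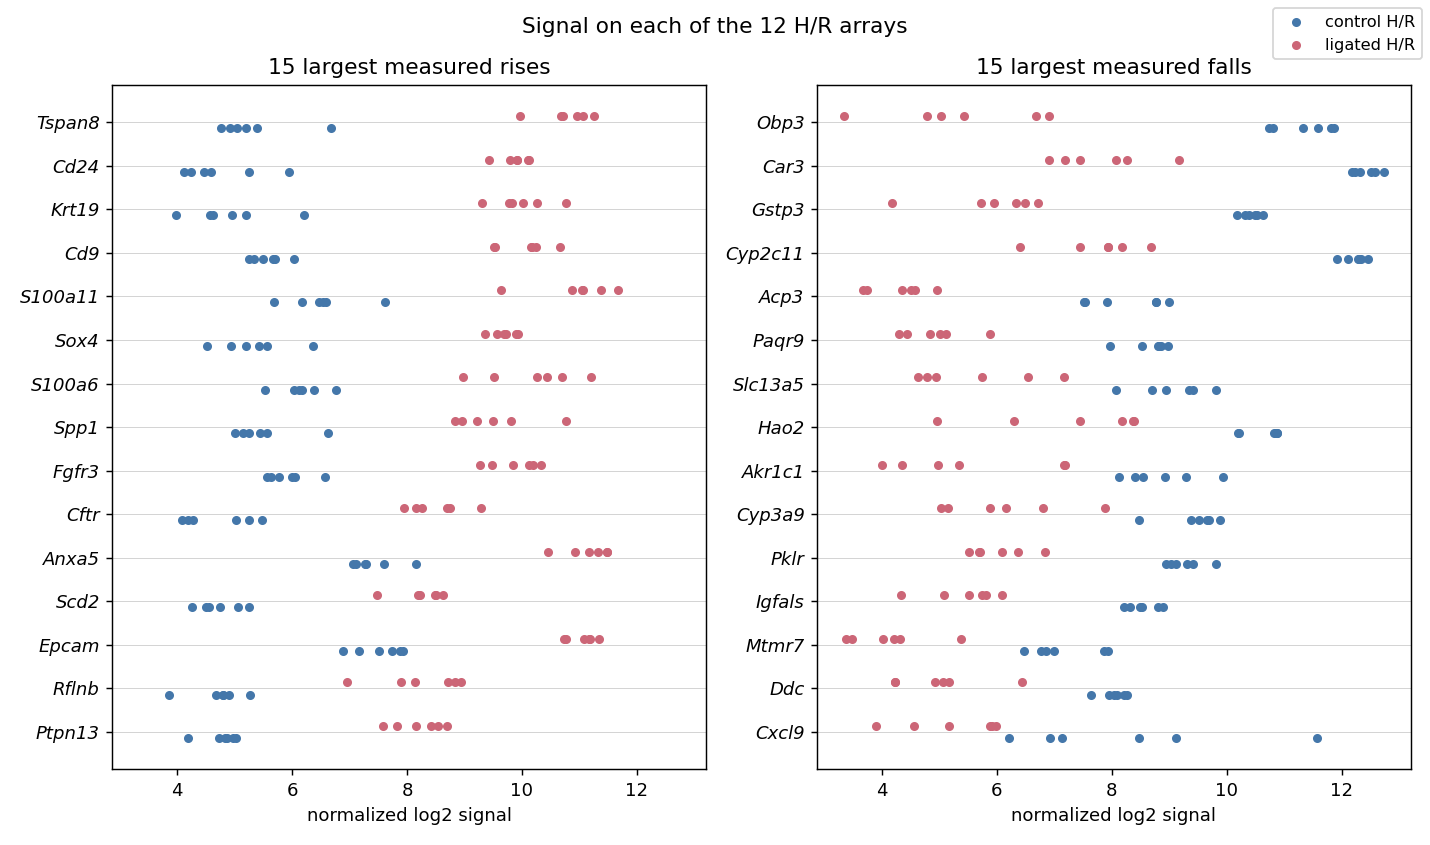
Normalized log2 signal of the 15 genes with the largest measured rises (left) and the 15 with the largest measured falls (right) on each of the 12 H/R arrays, blue for control H/R and red for ligated H/R. The groups do not overlap for any of the 15 rises. These were chosen for large differences in this same contrast, so the separation follows largely from the choice. Over all genes 14.3% were higher without overlap. Among the falls, Cxcl9 spans 6.21 to 11.57 in control H/R.

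Both groups were recognisably liver. Alb, the albumin gene that defines hepatocytes, lay between 13.70 and 13.79 in control H/R and between 13.65 and 13.74 in ligated H/R. It did not pass (log2 -0.06 ± 0.06, adjusted p = 0.41). These signals are close to the highest of the series (13.79), so the probe set may be near saturation and a fall may not show. All 7 red cell markers on the array, Gata1, Klf1, Alas2 and Slc4a1 among them, were at or under the nonspecific probes in both groups, and 0 passed (1 without control H/R replicate 4). Correlations of array pairs across genes were 0.970 to 0.985 within ligated H/R, 0.977 to 0.987 within control H/R and 0.895 to 0.954 between them. Array controls also moved with the group. Array medians were 3.98 to 4.02 in control H/R and 4.06 to 4.23 in ligated H/R (difference 0.15), and the BioD minus BioB control signal was 3.21 ± 0.06 and 3.57 ± 0.08 (SD, n = 6 each, difference 0.36). Each had p = 0.0022 in a two-sided exact permutation test, the smallest that 6 against 6 can give. The brightest nonspecific probe was lower in ligated H/R by 0.60 (exact permutation p = 0.013), and the 3' to 5' difference of actin, a sign of RNA quality, was 2.04 ± 0.17 and 2.03 ± 0.30 (exact permutation p = 0.93). All control titles share a numeric ending (13) that no ligated H/R title has. Its meaning is not stated, so between the H/R groups a batch it might mark and the group cannot be told apart. Some ligated simvastatin titles also end in 13, and the BioD minus BioB signal of those arrays was 3.43 to 3.93. The part of the array controls in the results was not tested.

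Bile duct and ductular epithelium stood highest. Of 21 markers on the array 18 rose and 0 fell, with a median difference of 3.36 against -0.03 over all genes. On centred arrays 17 rose and 2 fell. Mean log2 signals of the list were 5.06 to 5.92 in control H/R and 8.02 to 8.76 in ligated H/R. Krt19, a keratin that defines bile duct cells, ranged from 3.98 to 6.21 (median 4.79) in control H/R and from 9.31 to 10.76 (median 9.92) in ligated H/R. The groups did not overlap, and Krt19 rose 33.6-fold (log2 5.07 ± 0.28, adjusted p = 1.5e-15). Cd24, a surface glycoprotein of ductular and progenitor cells, went from 4.12 to 5.95 (median 4.52) in control H/R to 9.42 to 10.13 (median 9.92) in ligated H/R, a 34.6-fold rise (log2 5.11 ± 0.25, adjusted p = 5.4e-17). Cftr, the chloride channel of duct secretion, rose 13.9-fold and the adhesion molecule gene Epcam 11.5-fold. Dcdc2, a protein of the cholangiocyte cilium, was not above the nonspecific probes in control H/R and rose at least 18.6-fold. The secretin receptor Sctr rose at least 17-fold and the tight junction gene Cldn4 at least 9.38-fold. The members that did not pass were Sox9, whose probe set was at or under the nonspecific probes in both groups, the bicarbonate exchanger Slc4a2 (log2 0.25 ± 0.20, adjusted p = 0.31) and Onecut1 (log2 -0.27 ± 0.16, adjusted p = 0.17). In bulk liver, more cells of a type and more message per cell cannot be told apart.

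Spp1, osteopontin, a secreted protein and also a member of the duct list, ranged from 5.01 to 6.63 (median 5.34) in control H/R and from 8.83 to 10.76 (median 9.35) in ligated H/R, a 16.1-fold rise (log2 4.01 ± 0.51, adjusted p = 7.6e-08). Among genes outside the duct list, the calcium-binding genes S100a11 and S100a6 rose 21.6-fold and 16.2-fold, the annexin gene Anxa5 13.3-fold and the receptor tyrosine kinase Fgfr3 15.3-fold. The tetraspanin Cd9, which scar-associated macrophages and epithelia share, rose 22.1-fold (log2 4.46 ± 0.26, adjusted p = 5.3e-15). The transcription factor Sox4 rose 20.6-fold and the desaturase Scd2 11.5-fold on their brightest probe sets, whereas a second probe set of each gave -0.42 and -0.05 on the log2 scale. Genes whose control H/R level was only a bound included Itgb6, the epithelial integrin chain that activates TGF-beta (at least 14.2-fold), Msln, mesothelin (at least 24.2-fold), and Gpx2, an epithelial glutathione peroxidase (at least 26.6-fold). Tsx, Sncg and Fxyd3 rose at least 22.9-fold, 19.9-fold and 24.9-fold. Msln stood apart from the other mesothelial markers. Of 7 on the array Msln and Wt1 were higher and Calb2 and Krt14 lower, against 24.7% higher and 22.3% lower over all genes. At or under the nonspecific probes in both groups were 4 of the 7, Calb2 and Krt14 among them. Krt14 lost its call without control H/R replicate 2, 3 or 5 or ligated H/R replicate 1 and with the H/R groups fitted alone, and a second Wt1 probe set gave -0.00.

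Stellate cells and their scar matrix were higher as well. Of 18 stellate cell and myofibroblast markers 12 rose and 0 fell (median 1.13). Of 20 collagens and matrix proteins 15 rose and 0 fell (median 1.73), or 14 and 1 on centred arrays. Vim, the filament protein vimentin of mesenchymal cells, ranged from 8.25 to 9.27 (median 8.82) in control H/R and from 11.43 to 12.21 (median 11.90) in ligated H/R. It rose 8.18-fold (log2 3.03 ± 0.21, adjusted p = 2e-13) with a wide gap between the groups. Rgs5, a pericyte regulator of G protein signals, rose 7.97-fold, Sparc, a collagen-binding matrix protein, 4.25-fold, and the platelet-derived growth factor receptor Pdgfra 2.87-fold. The contractile marker Acta2 overlapped between groups, from 4.38 to 5.00 in control H/R and from 4.97 to 5.48 in ligated H/R, and rose 1.34-fold (log2 0.42 ± 0.17, adjusted p = 0.037). Col1a2, a chain of the main fibrillar collagen, ranged from 6.82 to 8.04 (median 7.51) and from 9.45 to 10.29 (median 9.63), a 4.50-fold rise (log2 2.17 ± 0.18, adjusted p = 1.6e-11). Lamb1, a laminin chain of basement membranes, rose 7.94-fold and Col5a2 5.81-fold. Col6a3 rose 5.97-fold on its brightest probe set, and a second one gave -0.42. Fibronectin (Fn1, log2 -0.13 ± 0.10, adjusted p = 0.28) and elastin (Eln, 0.12 ± 0.17, adjusted p = 0.60) did not pass.

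Genes that crosslink and remodel matrix followed in 13 of 18 cases, with 2 lower (median 1.47). Loxl1, which crosslinks elastin, rose at least 11.6-fold, Plod2, a collagen lysyl hydroxylase, 8.16-fold, and the protease inhibitor Timp1 3.60-fold. Mmp12, the macrophage elastase, ranged from 3.74 to 5.21 (median 4.06) in control H/R and from 8.22 to 9.60 (median 8.55) in ligated H/R, a rise of at least 15.2-fold (log2 4.38 ± 0.30, adjusted p = 1.5e-13). Mmp2 (at least 4.91-fold) and Timp2 (5.11-fold) also rose, with second probe sets at -0.10 and -0.08. The lower members were the stromelysin gene Mmp3 (log2 -1.84 ± 0.50, adjusted p = 0.0030) and the collagenase gene Mmp13 (log2 -1.19 ± 0.45, adjusted p = 0.029), and only 1 of them stayed past the threshold without control H/R replicate 1, 4 or 6 or ligated H/R replicate 5 or 6. Control H/R values of Mmp3 spread from 4.25 to 8.78 and those of ligated H/R from 2.38 to 5.52. Among 16 genes of TGF-beta and fibrogenic signalling 12 rose and 2 fell (median 0.98, or 1.61 without dim members, that is under either filter on low signal). Ltbp1, which anchors latent TGF-beta to matrix, rose 7.61-fold, the ligand Pdgfa 3.06-fold, the connective tissue growth factor gene Ccn2 5.56-fold and Tgfb2 at least 5.14-fold. The falls were Inhba, an activin chain, and Nog, a BMP antagonist whose signal was at or under the nonspecific probes in both groups. Tgfb1, counted among the rises (log2 0.59 ± 0.14), was also at or under those probes in both groups.

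**Figure D2:**
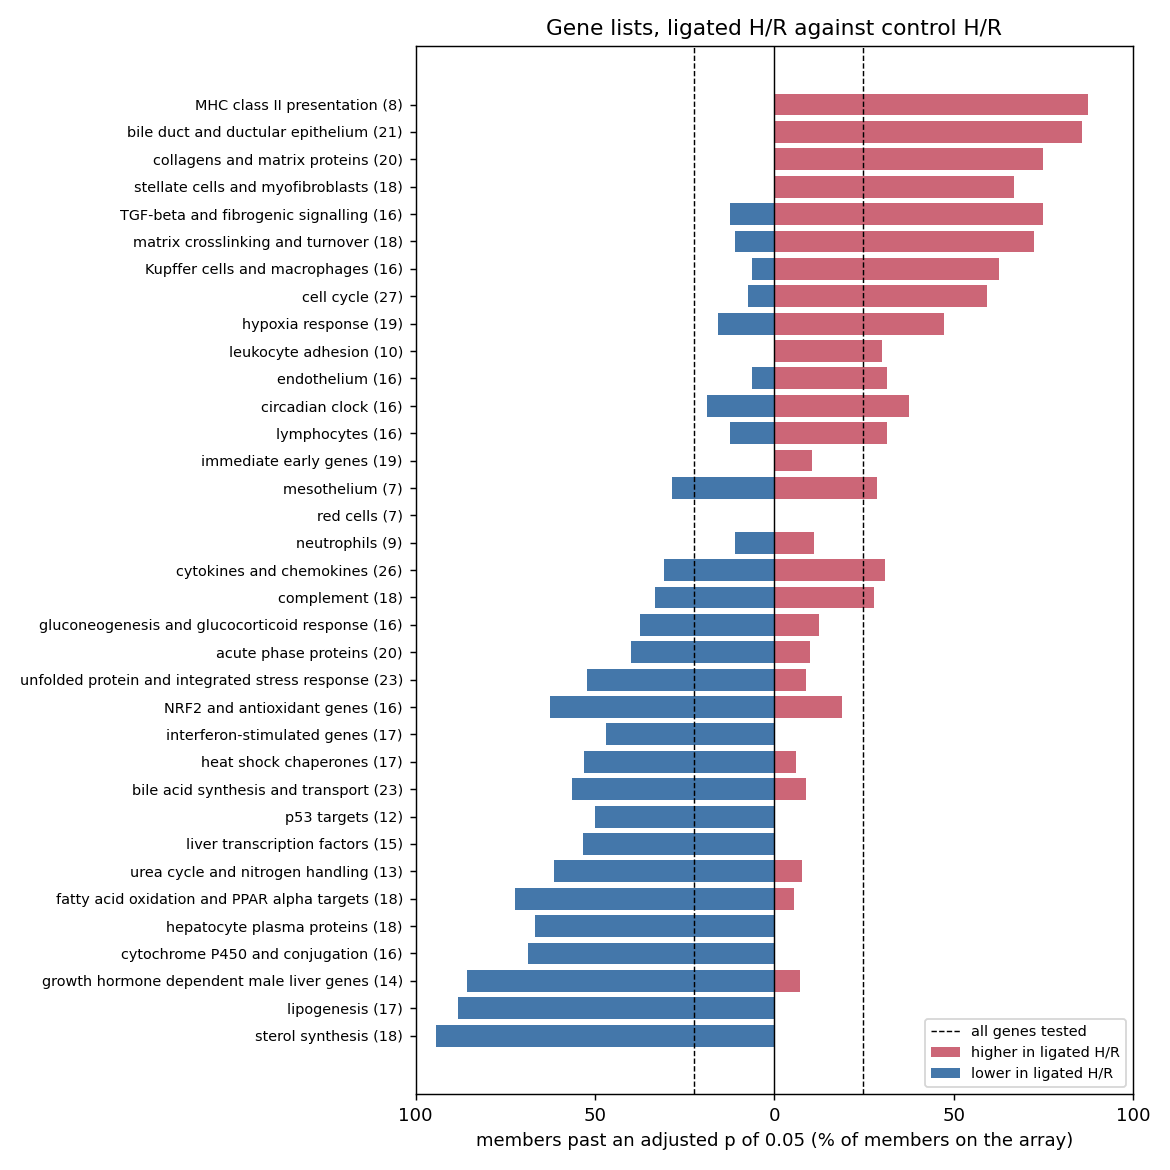
Share of the members on the array (number in parentheses) of each of 35 gene lists that were higher (red, to the right) or lower (blue, to the left) in ligated H/R at an adjusted p under 0.05. The dashed lines mark the shares over all 13439 genes, 24.7% higher and 22.3% lower. Duct, MHC class II, collagen and TGF-beta lists reach furthest right, and sterol synthesis, lipogenesis and male liver lists furthest left.

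Hepatocyte genes went the other way. Of 18 plasma protein genes 0 rose and 12 fell (median -0.46), and on centred arrays all 18 passed downward. F12, coagulation factor XII, ranged from 10.57 to 10.84 (median 10.68) in control H/R and from 8.47 to 10.09 (median 9.60) in ligated H/R, a 2.52-fold fall (log2 -1.33 ± 0.21, adjusted p = 4e-06) with no overlap. Igfals, which carries insulin-like growth factors in plasma, fell 8.68-fold. Serpinc1, antithrombin, fell 1.64-fold and Ttr, transthyretin, 1.27-fold. The fibrinogen chains Fga, Fgb and Fgg gave -0.19, -0.17 and -0.08 on the log2 scale and did not pass. The transcription factors of hepatocytes were lower in 8 of 15 cases and higher in 0 (median -0.42, or -0.83 with the 30th percentile filter on low signal). Nr1i3 and Prox1, among the falls, were at or under the nonspecific probes in both groups. Hnf4a itself ranged from 10.01 to 10.94 (median 10.48) in control H/R and from 8.87 to 10.03 (median 9.68) in ligated H/R. The ranges met only at their ends, and the fall was 2.02-fold (log2 -1.01 ± 0.19, adjusted p = 5.1e-05). Nr1i2, the xenobiotic receptor PXR, fell 2.35-fold, and the forkhead genes Foxa1 and Foxa3 fell 2.00-fold and 2.20-fold, while Foxa2 gave 0.25 ± 0.14 (adjusted p = 0.14).

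Promoter sequence was set beside these falls as a description. The shares compare lower genes with all tested genes and not with other hepatocyte genes. The part of HNF4A in the falls was not tested. The 250 bases upstream of the annotated start (RefSeq, GRCr8) were matched by symbol for 11057 of the 13439 genes and searched on both strands for exact letters. The HNF4 motif CAAAGTCCA was in 7 of 492 promoters of genes at least 2-fold lower (1.42%), 2 of 1086 of genes at least 2-fold higher (0.18%) and 36 of all 11057 (0.33%). The HNF1 motif, whose 10 letters are the capitals of the second set of windows (C5l1 holds overlapping matches), was in 5 (1.02%), 1 (0.09%) and 29 (0.26%). The 7 windows with the HNF4 motif are shown 5′ to 3′ on the strand of the gene, motif in capitals, since they show how the match sits in each lower gene, and in Kmo and Sec16b it reads on the opposite strand.
Agxt2: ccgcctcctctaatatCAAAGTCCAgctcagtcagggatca
Aspdh: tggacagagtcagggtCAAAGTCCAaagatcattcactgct
Cyp3a2: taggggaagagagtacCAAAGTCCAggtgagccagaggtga
Cyp3a23-3a1: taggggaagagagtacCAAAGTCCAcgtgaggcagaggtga
Kmo: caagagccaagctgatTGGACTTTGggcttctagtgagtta
Pdzk1: taaatcaatcttggtcCAAAGTCCA
Sec16b: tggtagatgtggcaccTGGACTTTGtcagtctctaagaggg

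The windows lie at chr2:61063352-61063392 (plus strand, Agxt2), chr1:104094906-104094946 (plus, Aspdh), chr12:14343930-14343970 (minus, Cyp3a2), chr12:14398889-14398929 (minus, Cyp3a23-3a1), chr13:90089431-90089471 (plus, Kmo), chr2:187064970-187064994 (plus, Pdzk1) and chr13:72217791-72217831 (plus, Sec16b). All are upstream of the start of transcription. The Cyp3a windows come from neighbouring copies of a gene family and are not independent. Kmo, an enzyme of tryptophan breakdown, fell by 1.98 on the log2 scale and Aspdh by 1.51. The windows with the HNF1 motif are shown for the same reason.
C5l1: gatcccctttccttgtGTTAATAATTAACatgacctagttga
Hgfac: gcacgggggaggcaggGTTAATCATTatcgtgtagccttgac
Lipc: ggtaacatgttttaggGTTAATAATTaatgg
Prodh2: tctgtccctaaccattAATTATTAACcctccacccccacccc
Serpina4: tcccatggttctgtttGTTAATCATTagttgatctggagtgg

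These lie at chr3:38817557-38817598 (minus strand, C5l1, where the capitals hold 2 overlapping matches, 1 on each strand), chr14:79938833-79938874 (minus, Hgfac), chr8:80516286-80516316 (minus, Lipc), chr1:94880925-94880966 (plus, Prodh2, motif on the opposite strand) and chr6:128764689-128764730 (plus, Serpina4). Lipc, hepatic lipase, fell by 1.56 and Serpina4, kallistatin, by 2.53 on the log2 scale. For scale, the AP-1 motif TGANTCA was in 8.33% of promoters of lower genes, 5.43% of higher and 4.80% of all, and the CCAAT letters in 42.89%, 33.70% and 35.12%. The heat shock element was in 0.61%, 0.28% and 0.37%. A match is a description of the letters and not a binding site.

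Of 14 genes in the male liver list 12 fell and 1, the glutathione transferase Gstp1, rose (median -1.59). The list mixes male liver genes such as Car3 and Obp3 with genes of growth hormone signalling and the receptors Lifr, Prlr and Egfr. Its members are therefore not all genes that growth hormone keeps high in males. Mup5, among the falls, and Lifr, which did not pass, were at or under the nonspecific probes in both groups. Car3, a carbonic anhydrase abundant in male liver, ranged from 12.18 to 12.73 (median 12.42) in control H/R and from 6.91 to 9.17 (median 7.75) in ligated H/R, a 24.2-fold fall (log2 -4.59 ± 0.54, adjusted p = 1.5e-08). Slc22a8, an organic anion transporter, was not above the nonspecific probes in ligated H/R and fell at least 16.6-fold. The receptor gene Ghr fell 3.19-fold and its signal transducer Stat5b at least 2.12-fold. Of 16 cytochrome P450 and conjugation genes 0 rose and 11 fell (median -1.36), with 1 rise without ligated H/R replicate 2. Cyp2c11, the main male-specific P450, went from 11.92 to 12.46 (median 12.29) in control H/R to 6.40 to 8.69 (median 7.93) in ligated H/R. That is a 22.1-fold fall (log2 -4.47 ± 0.51, adjusted p = 1e-08). Cyp3a9 fell 9.79-fold and Cyp2a2 4.31-fold, while Cyp2e1, the ethanol-oxidising enzyme, gave 0.42 ± 0.21 (adjusted p = 0.11). Members of the Cyp2c and Cyp3a families have similar sequences, so a probe set of 1 member may read its relatives. The list mean of ligated H/R replicate 3 was the highest of its group, 9.63 against 8.20 to 8.94 in the other 5 ligated H/R arrays, and still under the lowest control H/R array at 10.03.

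**Figure D3:**
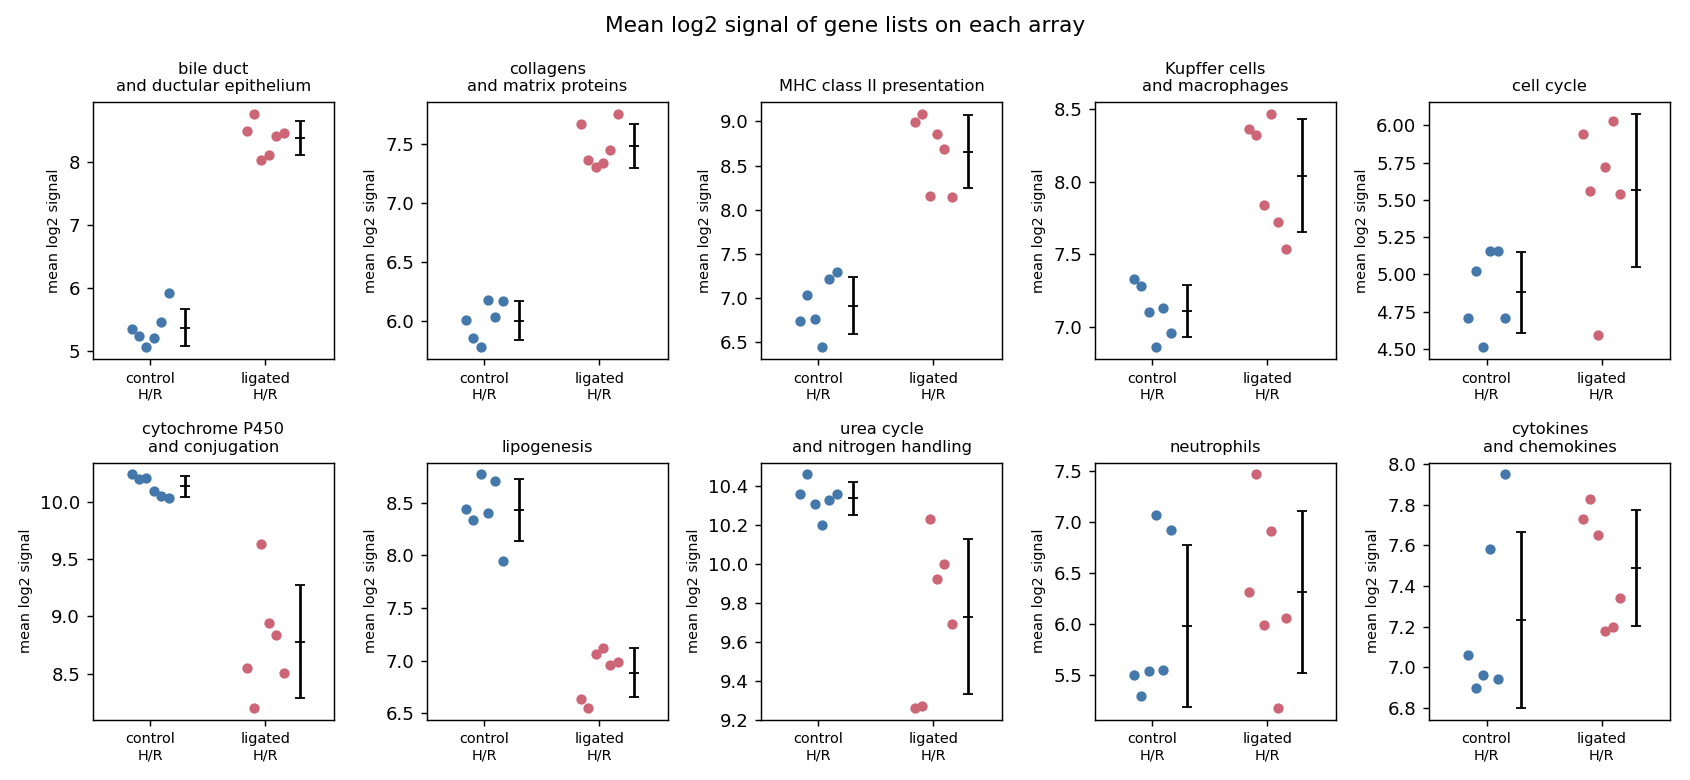
Mean log2 signal over the members of 10 gene lists on each H/R array, with the group mean and SD beside the points (n = 6 each). Duct, matrix, MHC class II and macrophage means of ligated H/R lie above those of control H/R, cytochrome P450 and lipogenesis means lie below, urea cycle and cell cycle means overlap because single ligated arrays reach the control range, and neutrophil and cytokine means overlap broadly.

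Lipid genes were lower almost throughout. Of 18 sterol synthesis genes 0 rose and 17 fell (median -0.93), Srebf2 alone not passing (log2 -0.06 ± 0.16, adjusted p = 0.78). Fdft1, squalene synthase, ranged from 8.81 to 9.32 (median 9.03) in control H/R and from 7.45 to 8.23 (median 8.01) in ligated H/R, a 2.25-fold fall (log2 -1.17 ± 0.15, adjusted p = 6.2e-08). Tm7sf2, a sterol reductase, fell 2.91-fold and lanosterol synthase Lss 2.55-fold. Of 17 lipogenesis genes 0 rose and 15 fell (median -1.55). Pklr, the liver pyruvate kinase that feeds fat synthesis, dropped from 8.94 to 9.81 (median 9.22) in control H/R to 5.51 to 6.83 (median 5.89) in ligated H/R. It fell 9.47-fold (log2 -3.24 ± 0.33, adjusted p = 9.3e-10) without overlap. Fatty acid synthase Fasn fell 3.45-fold, the elongase Elovl5 5.23-fold and the lipogenic regulator Srebf1 2.92-fold. Among 18 targets of PPAR alpha and enzymes of fatty acid oxidation 13 fell and 1, Acot1, rose (median -0.82). Fabp1, a carrier of fatty acids in hepatocytes, fell 3.99-fold, the dehydrogenase Acadm 2.38-fold and the hormone gene Fgf21 3.81-fold, while Cpt1a, the entry step of mitochondrial oxidation, gave -0.02 ± 0.31 (adjusted p = 0.96).

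Of 23 genes of bile acid synthesis and transport 13 fell and 2 rose (median -0.54, or -1.02 without dim members). The uptake carrier Slc10a1 ranged from 10.85 to 11.43 (median 11.36) in control H/R and from 7.93 to 10.15 (median 9.31) in ligated H/R, a 4.41-fold fall (log2 -2.14 ± 0.31, adjusted p = 1.1e-06). The canalicular pumps Abcc2 and Abcb11 fell 4.25-fold and 2.07-fold, and the sterol 12-alpha-hydroxylase Cyp8b1 fell 7.36-fold. The rises were Abcc3, an export pump of the basolateral membrane (at least 4.12-fold, log2 2.38 ± 0.18, adjusted p = 1.3e-12), and Cyp7a1. Cyp7a1, which sets the pace of bile acid production, overlapped, from 7.82 to 9.92 in control H/R and from 8.69 to 10.81 in ligated H/R (log2 1.02 ± 0.38, adjusted p = 0.026), and the count of rises was 1 without control H/R replicate 4 or 5 or ligated H/R replicate 5 or 6. In nitrogen handling 8 of 13 genes fell and 1 rose (median -0.40). Otc, ornithine transcarbamylase of the urea cycle, ranged from 10.90 to 11.01 (median 10.99) in control H/R and from 8.16 to 9.83 (median 9.12) in ligated H/R, a 3.62-fold fall (log2 -1.86 ± 0.27, adjusted p = 1.1e-06). The first urea cycle enzyme Cps1 did not pass (log2 -0.04 ± 0.09, adjusted p = 0.76), and glutamine synthetase Glul rose 1.80-fold. Without ligated H/R replicate 1 or 2 only 5 of the 13 passed downward. Of 16 genes of gluconeogenesis and the glucocorticoid response 6 fell and 2 rose, against 22.3% lower and 24.7% higher over all genes. The pyruvate carboxylase gene Pc was 4.38-fold lower and Tsc22d3, a glucocorticoid target, 4.49-fold higher.

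Macrophage and antigen presentation genes were higher. Of 8 MHC class II genes 7 rose and 0 fell (median 2.03). Cd74, the invariant chain, ranged from 8.11 to 9.06 (median 8.50) in control H/R and from 10.07 to 11.22 (median 10.64) in ligated H/R, a 4.25-fold rise (log2 2.09 ± 0.19, adjusted p = 1.1e-10) with no overlap. The class II chain RT1-Da rose 4.30-fold and the peptide loader RT1-DMb 4.20-fold, while the class II transactivator Ciita was at or under the nonspecific probes in both groups. Among 16 Kupffer cell and macrophage markers 10 rose and 1, Mpeg1, fell (median 0.93). Trem2, among the rises, was at or under the nonspecific probes in both groups. Gpnmb, a glycoprotein of lipid-handling macrophages, rose 5.47-fold, lysozyme Lyz2 3.47-fold and the complement chain C1qc 3.39-fold. Clec4f, a lectin specific to Kupffer cells in rodents, spread from 5.08 to 9.43 in ligated H/R against 8.42 to 9.65 in control H/R and did not pass (log2 -1.38 ± 0.74, adjusted p = 0.13). In the complement list 5 of 18 rose and 6 fell, near the 24.7% higher and 22.3% lower over all genes. Its rises included C1qa, C1qb and C1qc, and its falls included Mbl1, a lectin made by hepatocytes (2.78-fold).

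Of 16 lymphocyte markers, 10 of which were at or under the nonspecific probes in both groups, 5 rose and 2 fell (median -0.14), or 5 and 5 on centred arrays (median -0.30). Without dim members the median turned to 0.83, and it was -0.05 after quantile normalization, -0.09 with the mean of probe sets, -0.08 and -0.06 without control H/R replicates 4 and 5 in turn and -0.09 without ligated H/R replicate 3. The falls were the cytotoxic genes Gzmb and Prf1, which were among the dim markers, at or under the nonspecific probes in both groups. Without control H/R replicate 4, 1 of them was lost. Cd3g, a T cell receptor chain, rose at least 1.59-fold and the T cell kinase Lck 1.97-fold. Of 16 endothelial markers 5 rose and 1, Rspo3, fell (median 0.37), with Rspo3 at or under the nonspecific probes in both groups. On centred arrays 2 fell (median 0.22), and the median was 0.24 after quantile normalization. Over all genes 24.7% were higher and 22.3% lower, and the rises among lymphocyte and endothelial markers were near that share. Vwf, von Willebrand factor of vessels with a continuous lining, rose at least 2.00-fold and Emcn, endomucin, 3.28-fold. Stab2, a scavenger receptor of sinusoidal endothelium, ranged from 6.41 to 6.86 in control H/R and from 3.49 to 6.67 in ligated H/R and did not pass (log2 -1.10 ± 0.55, adjusted p = 0.099). Among 10 adhesion genes Vcam1 (2.70-fold), F11r (1.83-fold) and Sele rose and 0 fell, a count of rises also near the share over all genes. Sele, E-selectin of activated endothelium, was 2.40 to 3.57 (median 2.58) in control H/R and 2.63 to 7.65 (median 5.69) in ligated H/R, at least 1.76-fold higher (log2 2.67 ± 0.66, adjusted p = 0.0011) with at least 1 ligated array in the control range.

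Cell cycle genes rose in 16 of 27 cases and fell in 2 (median 0.59). Tyms, among the rises, was at or under the nonspecific probes in both groups. Ccnd1, cyclin D1, ranged from 6.65 to 7.22 (median 6.86) in control H/R and from 8.47 to 9.60 (median 8.95) in ligated H/R, a 4.32-fold rise (log2 2.11 ± 0.21, adjusted p = 4.3e-10). Mki67, the proliferation antigen Ki-67, overlapped between groups, from 3.78 to 5.46 and from 4.30 to 7.29, and rose at least 2.45-fold (log2 1.63 ± 0.36, adjusted p = 0.00037). Ligated H/R replicate 3, with the highest P450 mean, had the lowest cell cycle mean of its group, 4.59 against 5.54 to 6.03 in the other 5. The falls were Ccne1 and Mcm4, and 1 of them was lost without control H/R replicate 4 or ligated H/R replicate 1, 2 or 6. The p53 targets fell in 6 of 12 cases and rose in 0 (median -0.54), with 1 rise without control H/R replicate 3 or ligated simvastatin sham replicate 1, and the falls included Aen, an exonuclease (2.26-fold), Gadd45a (2.33-fold) and Bbc3 (1.59-fold). Of 16 circadian clock genes 6 rose and 3 fell (5 fell on centred arrays), against 24.7% higher and 22.3% lower over all genes. Bhlhe41 and Per2, repressors of the clock, rose at least 5.18-fold and 5.54-fold, Dbp rose at least 1.94-fold, and Bmal1 fell 2.08-fold. The hour of sampling is not known from the labels.

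H/R itself, set against sham, brought few genes past the threshold, and a gene that did not pass may still have moved. The list median of ligated H/R minus ligated sham was 1.03 for cytokines and chemokines and 1.23 for neutrophil markers. In control rats these medians were -0.00 and 0.75. Control H/R differed from control sham in 115 genes (0.856%, 0.365% higher and 0.491% lower), and ligated H/R from ligated sham in 18 (0.134%, 0.119% higher and 0.0149% lower). The inducible chaperones Hspb1 and Hspa1a did not pass between the H/R groups (log2 -0.44 ± 0.42 and -0.24 ± 0.48, adjusted p = 0.41 and 0.71). Hspb1 ranged from 8.55 to 11.89 (median 10.14) in control H/R and from 8.84 to 10.91 (median 9.89) in ligated H/R. Hspb1 was 4.30 higher in control H/R than in control sham and 2.50 higher in ligated H/R than in ligated sham on the log2 scale. Both H/R ranges lay above the sham arrays, at 5.55 to 6.34 in control sham and 6.57 to 7.75 in ligated sham. Between the H/R groups 9 of 17 chaperones fell and 1 rose (median -0.44, or -0.67 without control H/R replicate 3). Dnajb1, a co-chaperone of HSP70, went from 8.79 to 11.97 (median 9.74) in control H/R to 8.19 to 9.36 (median 8.95) in ligated H/R, a 2.37-fold fall (log2 -1.24 ± 0.32, adjusted p = 0.0016) with overlap. Bag3 fell 2.04-fold, Hspb8 2.02-fold and Hsph1 1.93-fold. The rise was Cryab, a small chaperone of the alpha-crystallin type (5.64-fold, log2 2.49 ± 0.44, adjusted p = 2.3e-05). Part of this was present without blood loss, since 5 chaperones were lower and 2 higher between the sham groups (median -0.13). There Cryab gave 4.41, Hsph1 -1.35 and Hspb8 -0.76 on the log2 scale, while Dnajb1 (-0.32) and Bag3 (-0.04) did not pass. Of 23 genes of the unfolded protein and integrated stress response 12 fell and 2 rose (median -0.43). Between the sham groups 16 were lower and 0 higher (median -0.70). With H/R, Trib3, a pseudokinase induced by ATF4, fell 2.40-fold, and the ubiquitin ligase gene Syvn1 2.07-fold. Their sham differences were -1.06 and -1.49 on the log2 scale. The rises with H/R were enzymes of serine synthesis, Phgdh and Psat1. Phgdh was 4.87 to 6.32 (median 5.03) in control H/R and 6.21 to 7.65 (median 7.09) in ligated H/R, 3.42-fold higher (log2 1.78 ± 0.27, adjusted p = 1.5e-06), and the ranges touched because of control H/R replicate 2. Its sham levels were alike, 6.69 to 8.09 in control and 7.06 to 7.82 in ligated rats.

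Of 16 NRF2 targets and antioxidant genes 10 fell and 3 rose (median -0.66). Txnrd1, thioredoxin reductase, fell 2.20-fold, catalase (Cat) 2.30-fold and Gclc, the rate-limiting enzyme of glutathione synthesis, 2.42-fold. The rises were Gpx2, the glutathione peroxidase Gpx3 (8.95-fold) and the efflux pump Abcc5 (2.04-fold). Heme oxygenase Hmox1 gave 0.04 ± 0.30 (adjusted p = 0.93). Of 19 hypoxia response genes 9 rose and 3 fell (median 0.20), and the rises were 5 without control H/R replicate 3 or ligated H/R replicate 1. Pfkfb4 and Car9, among the falls, were at or under the nonspecific probes in both groups. The median was 1.04 without dim members, 0.05 on centred arrays, 0.13 with the mean of probe sets and 0.36 without control H/R replicate 6. Ndrg1 rose 5.05-fold, the oxygen sensor Egln3 at least 7.02-fold and the glycolytic enzyme Aldoa 2.18-fold. Hexokinase Hk1 rose at least 2.27-fold on its brightest probe set, and 3 others gave -0.09 to -0.28. Of 19 immediate early genes, which respond within minutes, 2 rose and 0 fell, against 24.7% higher and 22.3% lower over all genes. Without control H/R replicate 3 or ligated H/R replicate 1, 1 fell. The rises were Klf4 (1.99-fold) and Egr2 (2.06-fold, log2 1.05 ± 0.27, adjusted p = 0.0019), whereas Egr1 gave -0.07 ± 0.24 (adjusted p = 0.82).

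Cytokines and chemokines split evenly, with 8 of 26 higher and 8 lower (median 0.27), against 24.7% higher and 22.3% lower over all genes. The median was 0.54 without dim members and 0.12 on centred arrays. It was 0.17 and 0.48 without control H/R replicates 3 and 6 in turn, and 0.13, 0.14 and 0.53 without ligated H/R replicates 1, 2 and 4 in turn. Ccl20, which draws Th17 and dendritic cells, went from 3.58 to 4.44 (median 3.99) in control H/R to 7.57 to 9.92 (median 8.74) in ligated H/R, at least 17.2-fold higher (log2 4.72 ± 0.52, adjusted p = 5.2e-09). Cxcl6, a neutrophil chemokine, rose at least 17.6-fold, Cxcl16 6.00-fold and Cx3cl1 at least 3.22-fold. The monocyte chemokine Ccl2 ranged from 7.14 to 9.56 (median 8.30) in control H/R and from 8.90 to 10.65 (median 9.64) in ligated H/R, with overlap, and rose 2.55-fold (log2 1.35 ± 0.52, adjusted p = 0.032). Lower were the interferon-induced T cell chemokines Cxcl9, Cxcl10 and Cxcl11 (8.03-fold, 5.25-fold and 7.05-fold), and the regulatory cytokine Il10 (4.06-fold, log2 -2.02 ± 0.29, adjusted p = 8.5e-07). Csf3, also counted as lower, was at or under the nonspecific probes in both groups. The neutrophil chemokines Cxcl1 (0.18 ± 0.40, adjusted p = 0.74) and Cxcl2 (0.78 ± 0.47, adjusted p = 0.17) did not pass. Il1b (0.72 ± 0.44), Il6 (0.36 ± 0.61) and Tnf (0.74 ± 0.52), the classical early cytokines, did not pass (adjusted p = 0.18, 0.66 and 0.25). Mean signals of the 9 neutrophil markers were 5.30 to 7.07 in control H/R and 5.18 to 7.47 in ligated H/R. Control H/R replicates 4 and 6 had the highest neutrophil means of their group, 7.07 and 6.92, beside 4 arrays at 5.30 to 5.55. The part of neutrophil content in the cytokine values was not tested. Only Lcn2 (2.29-fold higher) and the dim Fcnb passed among neutrophil markers, and Fcnb lost its call without control H/R replicate 4 or 6, ligated H/R replicate 3, 5 or 6, or with the H/R groups fitted alone. Without control H/R replicate 6 or ligated H/R replicate 5, 2 neutrophil markers passed upward.

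Of 17 interferon-stimulated genes 8 fell and 0 rose (median -0.54). Usp18, which removes ISG15 from proteins, ranged from 6.71 to 9.55 (median 7.95) in control H/R and from 3.99 to 5.56 (median 5.12) in ligated H/R, a 7.95-fold fall (log2 -2.99 ± 0.38, adjusted p = 8.6e-08) with no overlap. The RNA sensor Rig1 fell 2.71-fold, the virus tether Bst2 2.35-fold and the signal transducer Stat2 1.70-fold. Of 20 acute phase genes 8 fell and 2, Orm1 and Lcn2, rose (median -0.29). Apcs, serum amyloid P, fell 2.68-fold, the iron hormone gene Hamp 2.91-fold and Crp 2.67-fold, and 5 passed downward without ligated H/R replicate 2. Haptoglobin (Hp) gave 0.03 ± 0.06 (adjusted p = 0.74).

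Most of these differences were also present between the sham groups, which share no arrays with the H/R groups. Both contrasts come from the same limma fit with 1 shared estimate of spread per gene, so their calls are not independent. The sham groups differ in title ending and array controls as the H/R groups do. Control sham titles all end in 13, and ligated sham titles in 03, 04 or 06. The BioD minus BioB signal was 3.11 to 3.26 in control sham and 3.52 to 3.79 in ligated sham. In this contrast too, a batch and the group cannot be told apart. Of the 6310 genes that passed with H/R, 4932 also passed between ligated sham and control sham, where 6402 passed (47.6%, with 25.3% higher and 22.4% lower). The direction matched in 4930, which is 78.1% of the H/R calls and 77.0% of the sham calls. Across all genes the differences had r = 0.94 and a slope of 0.86 for H/R on sham, as a description over genes that are not independent replicates. The opposite direction appeared in 2 genes. C3ar1, a complement receptor gene, was dim in both H/R groups (0.45 with H/R and -0.47 with sham). Rcan2, a regulator of calcineurin, fell by 0.60 with H/R and gave 1.01 with sham, and its H/R call was lost without control H/R replicate 4 or 6 or ligated H/R replicate 1 or 2, with the H/R groups fitted alone and with the mean of its probe sets.

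**Figure D4:**
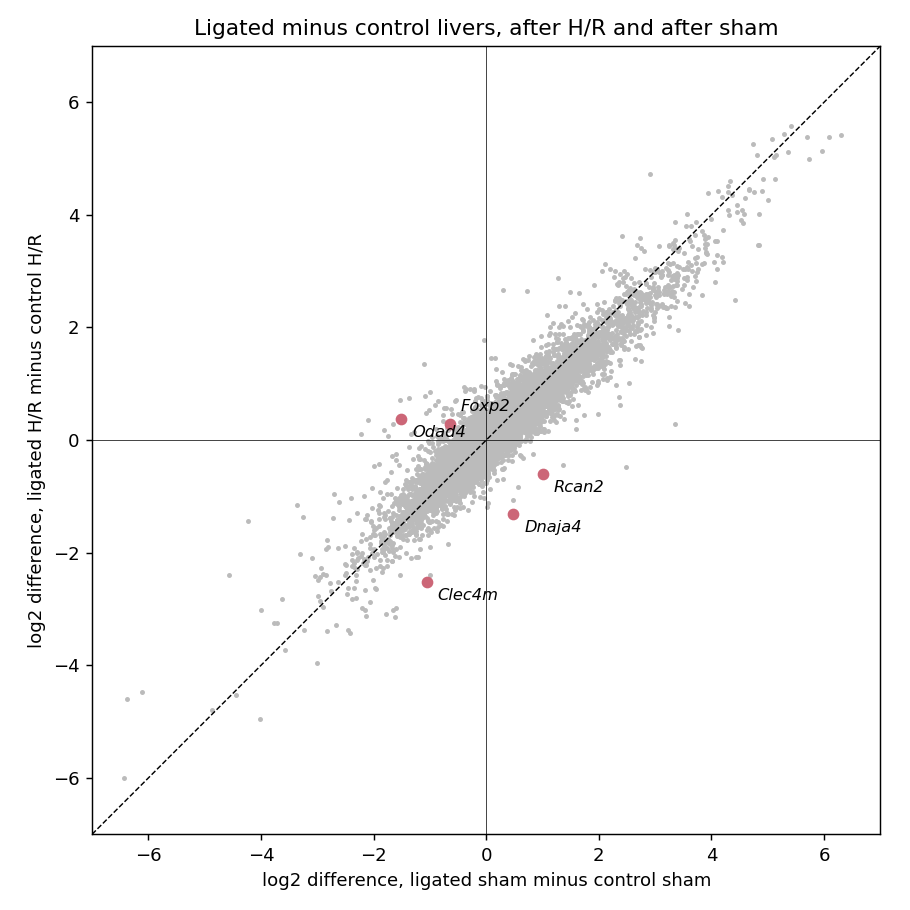
Log2 difference of each of the 13439 genes between ligated and control livers after H/R (vertical) and after sham (horizontal), with the 5 genes of smallest p for the difference of these differences in red. The points scatter along the dashed line of equal differences, with a slope of 0.86, and Clec4m lies below it.

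The difference of the differences asks whether ligated and control livers differed by another amount after H/R than after sham. In the limma fit 1 gene (0.00744%) passed, Clec4m, and 734 genes (5.46%) had an unadjusted p under 0.05. Clec4m, a C-type lectin gene of sinusoidal endothelium, was 3.33 to 4.05 in control sham, 4.84 to 5.70 (median 5.26) in control H/R, 2.32 to 3.20 in ligated sham and 2.33 to 3.24 (median 2.72) in ligated H/R. Control H/R arrays stood above those of the other 3 groups. Only in control H/R did Clec4m exceed the brightest nonspecific probe of its array. On every array of the other 3 groups it was under that probe, so its sham difference compares signals under the nonspecific probes. Between the H/R groups Clec4m was at least 2.39-fold lower in ligated rats (log2 -2.52 ± 0.16, adjusted p = 3.8e-14), and between the sham groups it was lower by -1.06 on the log2 scale. The difference of -1.46 ± 0.24 had an adjusted p of 0.013, which ranged from 0.0028 to 0.13 over 30 alternatives. It missed the threshold with only the 4 groups fitted (adjusted p = 0.13) and without control sham replicate 1 (0.055), ligated sham replicate 3 (0.052) or ligated sham replicate 4 (0.055). Without control H/R replicate 3 or control sham replicate 3, 5 genes passed.

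The next smallest p belonged to Dnaja4, Rcan2, Odad4 and Foxp2, each with an adjusted p of 0.11. Dnaja4, an HSP40 co-chaperone, was 7.52 to 10.24 (median 8.77) in control H/R and 6.91 to 8.05 (median 7.56) in ligated H/R, 2.49-fold lower (log2 -1.32 ± 0.25, adjusted p = 5.6e-05), against 0.48 in sham (adjusted p = 0.15). Odad4, a gene of motile cilia, gave 0.37 with H/R (adjusted p = 0.27) and -1.51 with sham, and Foxp2 was dim in all H/R arrays. Phgdh gave 1.78 with H/R and -0.04 with sham, a difference of 1.81 ± 0.40 with an adjusted p of 0.13.

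Cytokines held the most members with an unadjusted p under 0.05 for this difference among the 35 lists, 12 of 26, against 734 of 13439 genes (5.46%), and 0 passed after adjustment. The list median was 0.27 with H/R and -1.13 with sham, where 5 members were higher and 13 lower. List means were 6.91 to 7.89 in control sham, 6.90 to 7.95 in control H/R, 5.61 to 6.96 in ligated sham and 7.18 to 7.83 in ligated H/R. Ligated sham arrays were thus the low group and ligated H/R arrays overlapped with both control groups. Il1b was 9.34 to 10.72 in control sham, 9.60 to 10.86 in control H/R, 6.62 to 9.88 in ligated sham and 10.31 to 11.40 in ligated H/R. It gave 0.72 with H/R and -1.53 with sham (difference 2.25 ± 0.65, adjusted p = 0.61). Il1a fell by 1.44 with H/R and by 4.23 with sham, and Cxcl10 by 2.39 and 4.56. Usp18 was lower in ligated livers in both settings.

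**Figure D5:**
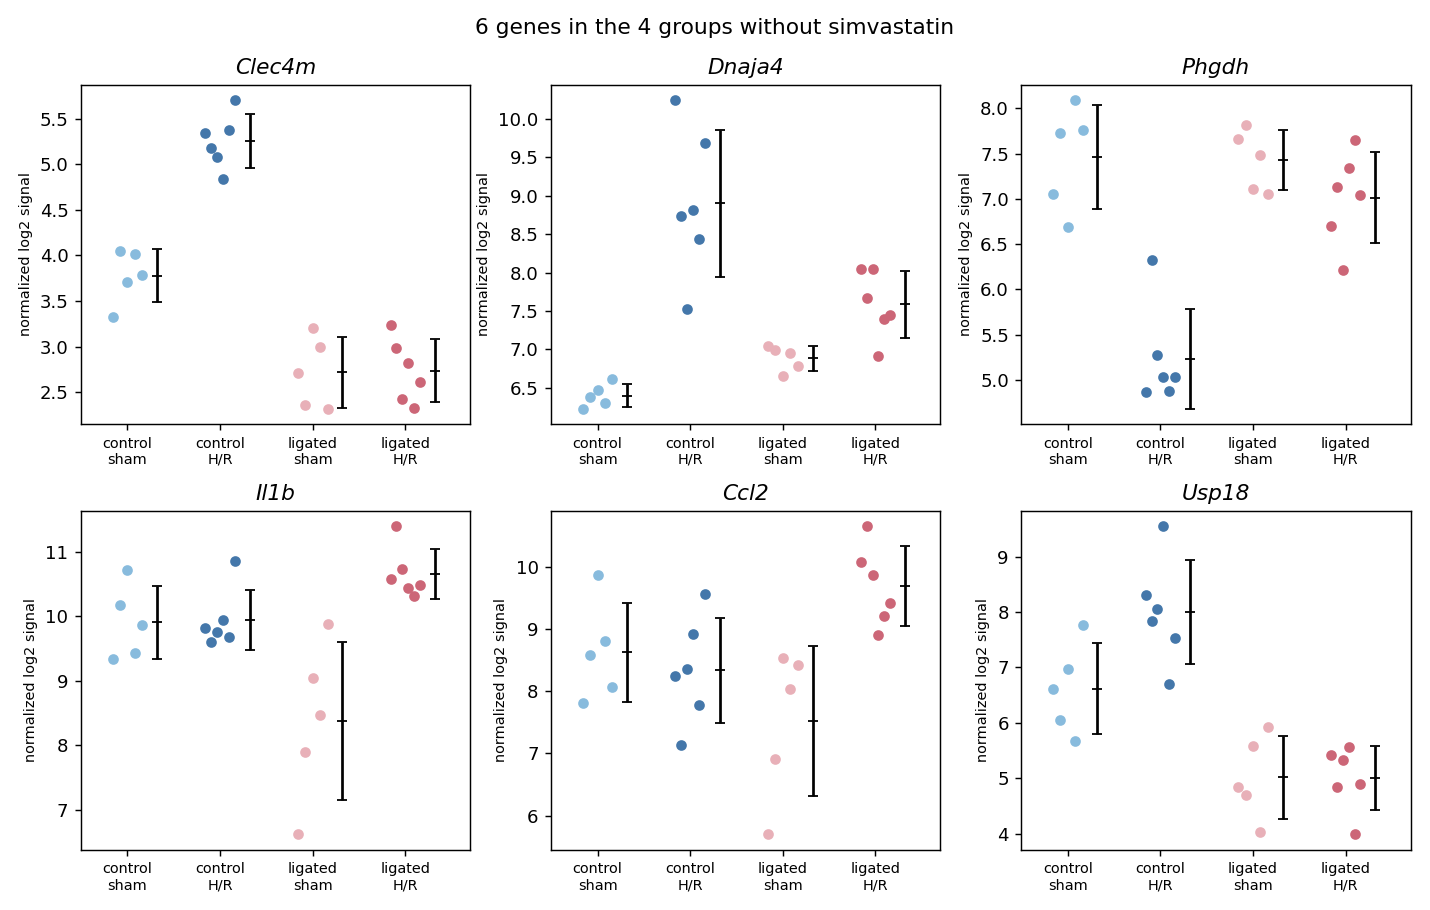
Normalized log2 signal of Clec4m, Dnaja4, Phgdh, Il1b, Ccl2 and Usp18 on each array of control sham (n = 5), control H/R (n = 6), ligated sham (n = 5) and ligated H/R (n = 6), with group means and SD. Control H/R has the highest mean for Clec4m and Dnaja4 and the lowest for Phgdh, and ligated sham has the lowest mean for Il1b and Ccl2.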

How the data were processed

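Liver RNA of 12 samples (6 control H/R, 6 ligated H/R) was compared within a series of 35 arrays. The authors deposited normalized log2 signals per probe set, per the labels single-colour Affymetrix arrays with biotin label. The sources used here name no normalization method or software, and the range of the values shows the log2 scale (1.51 to 13.79, array medians 3.97 to 4.29). Of 31139 probe sets 19069 (61.2%) carry 1 symbol in GEO's platform annotation, 572 several and 11498 none. Each of 13439 genes was read from its brightest probe set by mean signal, and 3986 of them have several. No pair of arrays was identical (0 pairs).

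All 35 arrays entered 1 limma 3.58.1 model (lmFit, eBayes, a mean for each group) in R 4.3.3, with Benjamini-Hochberg adjustment over all genes and a threshold of 0.05, and was tested on simulated data. The comparison, its members and the 35 gene lists (572 of 653 genes on the array) were chosen with earlier results of these data known. Genes were named by rule: the 15 largest measured rises and falls, the 6 largest of each with a bound, up to 4 members per list of smallest p, and the 5 genes of smallest p for the difference of the differences, leaving out uncharacterised loci. Other list members, and C3ar1, were named after their values were seen. Lists were described by counts and medians, without a set test. Alternatives were a fit of only the groups compared, array weights, eBayes with its trend and robust options, filters on low signal (30th percentile, or background), quantile normalization, centring on array medians, the mean of a gene's probe sets, and leaving out each array. A fit without ligated simvastatin sham replicate 1, with an actin 3' to 5' difference of 4.30 against 1.41 to 2.34 on the other 34 arrays, was added after seeing the data.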

Additional observations from a re-analysis of the deposited data

Results flagged for a closer look

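Of 412 sets of 6 values checked (genes named by rule and list means, per group), 26 held an array far from the other 5 relative to the range of the group. Chance gives about 1 in 20. The array is named in each case, and no cause was tested.

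Control H/R replicate 6 was highest of its group for the ductular genes Tspan8 (6.67) and Spp1 (6.63) and lowest for Foxa3 (7.13) and Slc22a8 (6.81). Control H/R replicate 4 was highest for Lss (9.10) and for the mean of the interferon-stimulated genes (7.62) and lowest for Nr1i2 (6.13). Replicate 5 of that group was lowest for Cyp3a18 (9.28) and highest for Tm7sf2 (9.79). Replicate 2 was lowest for Cyp3a9 (8.47) and highest for Phgdh (6.32), replicate 3 highest for Odad4 (5.69) and replicate 1 lowest for Ptpn13 (4.18).

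Among ligated H/R arrays, replicate 3 had the lowest Msln (7.50), the highest mean of male liver genes (6.47) and the lowest cell cycle mean (4.59). Replicate 2 was highest for the T cell genes Cd3e (5.10) and Cd3g (6.38), for Stac3 (3.49) and for the interferon-stimulated mean (6.51). Replicate 1 was highest for the red cell gene Ahsp (5.47) and the red cell list mean (3.64), and lowest for Bst2 (8.68). Replicate 6 was highest for Col1a2 (10.29) and lowest for Slc22a8 (2.77), and replicate 4 lowest for Tie1 (4.55).

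Clec4m differed by test between the H/R and the sham contrast, by -1.46 on the log2 scale. Its signal was above the nonspecific probes only in control H/R.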

How the results depend on the processing

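Of the 171 genes named by rule 160 passed, and 157 of these kept their direction and side of the threshold under all 21 alternatives that could be fitted to them, Fcnb, Krt14 and Rcan2 being the exceptions. Most were named for a large difference or a small p in this same contrast, so their stability does not stand for that of other genes. The filters on low signal drop some dim genes and give no value there. Leaving out 1 array in turn gave 5577 (without ligated H/R replicate 2) to 6586 genes (without ligated simvastatin sham replicate 1), 3025 to 3453 higher and 2552 to 3133 lower, 1288 to 1456 at least 2-fold higher and 516 to 663 at least 2-fold lower. Centring raised the lower count to 4795. The count for the difference of the differences was 0 with only the groups compared and with the 30th percentile filter (where Clec4m was removed), 2 after quantile normalization, 2 with the mean of probe sets, and 0 to 5 when an array was left out. No list median of at least 0.3 in size changed sign. Medians that moved by more than the spread between arrays under the 30th percentile and the background filter, both of which remove dim members, were those of stellate cells (1.52 under both), crosslinking (2.03 and 1.92), TGF-beta (1.61), bile acids (-1.02), hypoxia (1.04), lymphocytes (0.83) and mesothelium (2.19 and 1.10), and under the first alone liver transcription factors (-0.83). Collagens moved to 1.53 (quantile) and 1.54 (mean of probe sets), male liver genes to -1.74, NRF2 genes to -0.81 and endothelium to 0.22 (centred), and the clock to -0.03 (mean of probe sets). Genes that changed sign had not passed: Ahsp (-0.04 with array weights, -0.01 quantile, -0.08 centred, -0.25 to 0.21 with 1 array left out), Jund (-0.28 with the mean of probe sets), Klf1 (-0.10 centred, -0.02 to 0.13 with 1 array left out, -0.00 without ligated H/R replicate 6) and Slc4a1 (-0.05 centred, -0.07 mean of probe sets, -0.02 without ligated H/R replicate 1). Where no construction is named, the cause was not tested. No paired analysis was possible because the replicate numbers only follow the order of the samples and the numbers in the titles share no ending between the H/R groups. Of the genes tested 4082 were not above the nonspecific probes in either H/R group, and 1204 of the higher and 867 of the lower calls had the dimmer group there.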
